A study of Mus musculus with 22 samples.

Results

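The Ikaros binding map of wild-type (WT) regulatory T cells (Treg cells, which restrain immune responses and depend on the transcription factor Foxp3) held 16672 regions with an Ikaros peak in both of 2 libraries. They were found by merging the peaks of the 2 lists wherever peaks overlapped by at least 1 bp and keeping each merged region that had a peak from both lists. The map makes up 16672 of 32216 regions with an Ikaros peak in at least 1 library, and the series as a whole holds 73991 merged regions with a peak in any list. The peaks come from chromatin immunoprecipitation sequencing (ChIP-seq), which recovers the DNA bound by a chosen protein, on primary mouse Treg cells of spleen and lymph nodes that were stimulated for 1 h. Cells were fixed with 1% formaldehyde, for 30 min before immunoprecipitation of transcription factors and for 5 min before that of acetylated histone. Ikaros was mapped in WT cells with 2 libraries, whereas Foxp3, the acetyltransferase p300, the calcium-activated factor NFAT1 and H3K27ac, the acetylated form of lysine 27 on histone H3 that marks active promoters and enhancers, were mapped in WT cells and in cells named IkE5 deficient, with 2 libraries per genotype. The labels do not expand IkE5, and they give no age, sex, strain or number of animals. The title of the series names the Ikaros gene Ikzf1, and the amount of Ikaros left in IkE5 cells is unknown here because no Ikaros list of those cells was analysed.

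Ikaros is a zinc finger transcription factor of blood cells. Its zinc fingers read short DNA sites with a GGGAA core, it pairs with relatives such as Aiolos and Helios, and it recruits the NuRD corepressor complex as well as activating chromatin factors. In T cells it is known for holding down cytokine genes, for restraining Notch target genes during thymic development and for setting the threshold of T cell receptor signalling.

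Sequences of promoters under and outside the map are shown first because 36.1% of the regions lay within 1 kb of a gene start and their sequence is discussed below. Each window runs from 250 bases before to 50 bases after a gene start in the RefSeq table of GRCm38.p6, the assembly of mm10, and is written 5′ to 3′ on the strand of the gene. Capitals mark TGGGAA, an Ikaros core, and CGGAAG, a core of sites of the ETS family of factors, on either strand. The first 3 windows belong to genes examined by name, and the next 3 are those with most CGGAAG among 38 windows of listed genes that lay whole under an Ikaros region. Those 3 were chosen after their values were seen and are not typical of the 38. Of the 38 windows 9 held CGGAAG, 3 held it 2 or more times and 13 held TGGGAA. The last window, of Foxp3, had H3K27ac in both WT libraries and no Ikaros peak in either library.
Cd3e, chr9:45009562-45009861, minus strand, 196 of 300 bases under an Ikaros region: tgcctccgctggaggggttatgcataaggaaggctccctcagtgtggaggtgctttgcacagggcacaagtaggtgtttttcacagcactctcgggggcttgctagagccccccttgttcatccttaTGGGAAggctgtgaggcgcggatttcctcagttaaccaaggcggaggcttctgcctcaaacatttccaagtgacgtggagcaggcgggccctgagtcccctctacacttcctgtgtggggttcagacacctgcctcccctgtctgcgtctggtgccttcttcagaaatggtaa
Ikzf5, chr7:131410429-131410728, minus strand, 300 of 300 bases: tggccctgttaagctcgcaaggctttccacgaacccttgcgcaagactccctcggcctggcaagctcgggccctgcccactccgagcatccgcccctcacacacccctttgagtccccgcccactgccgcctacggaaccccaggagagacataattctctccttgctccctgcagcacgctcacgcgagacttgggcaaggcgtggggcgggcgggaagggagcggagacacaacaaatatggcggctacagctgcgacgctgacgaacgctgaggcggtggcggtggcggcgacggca
Il2, chr3:37125905-37126204, minus strand, 300 of 300 bases: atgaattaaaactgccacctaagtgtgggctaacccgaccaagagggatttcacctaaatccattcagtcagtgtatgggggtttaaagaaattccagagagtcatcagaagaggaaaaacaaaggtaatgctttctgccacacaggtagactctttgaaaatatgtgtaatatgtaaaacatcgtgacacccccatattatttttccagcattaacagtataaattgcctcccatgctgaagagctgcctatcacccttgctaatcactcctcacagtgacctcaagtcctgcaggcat
Mta2, chr19:8941670-8941969, plus strand, 300 of 300 bases: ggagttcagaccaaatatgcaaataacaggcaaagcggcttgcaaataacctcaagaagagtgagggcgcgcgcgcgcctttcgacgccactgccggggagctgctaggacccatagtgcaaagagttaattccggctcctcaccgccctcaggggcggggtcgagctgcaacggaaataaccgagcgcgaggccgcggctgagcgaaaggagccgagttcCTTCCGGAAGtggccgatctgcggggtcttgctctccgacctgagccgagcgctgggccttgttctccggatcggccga
Kat5, chr19:5610045-5610344, minus strand, 300 of 300 bases: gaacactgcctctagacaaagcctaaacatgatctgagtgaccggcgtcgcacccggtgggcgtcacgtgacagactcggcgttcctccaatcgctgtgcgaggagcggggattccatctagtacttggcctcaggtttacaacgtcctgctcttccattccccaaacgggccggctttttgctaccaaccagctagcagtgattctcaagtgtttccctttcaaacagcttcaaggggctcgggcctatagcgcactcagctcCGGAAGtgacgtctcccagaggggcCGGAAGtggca
Bcl10, chr3:145924012-145924311, plus strand, 300 of 300 bases: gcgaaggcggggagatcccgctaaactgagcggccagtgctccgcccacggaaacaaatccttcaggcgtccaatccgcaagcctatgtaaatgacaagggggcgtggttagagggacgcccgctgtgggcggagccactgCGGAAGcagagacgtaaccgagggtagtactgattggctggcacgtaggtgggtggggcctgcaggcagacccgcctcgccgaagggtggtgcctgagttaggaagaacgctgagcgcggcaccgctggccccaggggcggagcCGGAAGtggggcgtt
Foxp3, chrX:7579426-7579725, plus strand, 0 of 300 bases: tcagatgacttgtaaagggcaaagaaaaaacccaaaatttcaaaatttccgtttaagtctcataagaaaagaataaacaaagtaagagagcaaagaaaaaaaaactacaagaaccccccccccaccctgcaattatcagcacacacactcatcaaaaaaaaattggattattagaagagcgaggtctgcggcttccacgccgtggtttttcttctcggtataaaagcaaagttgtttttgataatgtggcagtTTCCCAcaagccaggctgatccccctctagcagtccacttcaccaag
The Cd3e window, of a chain of the T cell receptor complex, held 1 TGGGAA and no CGGAAG. Neither motif occurred in the window of Ikzf5 (Pegasus, an Ikaros relative) or in that of Il2, the gene of the growth factor interleukin 2. Mta2, a NuRD subunit, Kat5, an acetyltransferase known to act with Foxp3, and Bcl10, an adaptor of T cell receptor signalling, held 2 CGGAAG each and no TGGGAA. In Kat5 and Bcl10 the 2 matches stood apart, whereas in Mta2 they overlap on opposite strands of a single palindrome. The Foxp3 window held 1 TGGGAA without an Ikaros peak.

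The 2 Ikaros libraries were not alike in what they found alone. Library 1 held 22297 peaks, of which 74.9% overlapped a peak of library 2, and library 2 held 26641 peaks, of which 62.6% overlapped library 1. In the shared regions the peaks lay close together, with a median overlap of 445 bp between peaks of 500 bp and a median distance of 55 bp between centres. A further 5590 regions had a peak in library 1 only and 9954 in library 2 only. NFAT1 peaks lay at 26.0% and 25.8% of the library 1 only regions (WT NFAT1 libraries 1 and 2), against 2.37% and 1.41% of the library 2 only regions. The p300 peaks showed the same split, at 36.3% and 24.7% of the library 1 only regions and at 3.60% and 2.23% of the library 2 only regions. At the shared regions the shares were 32.1% and 28.4% for NFAT1 and 49.2% and 40.5% for p300. Regions found by library 2 alone were thus seldom sites of NFAT1 or p300, while regions found by library 1 alone often were.

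Foxp3 followed the number of the library. Of the library 1 only regions, 55.5% had a peak in WT Foxp3 library 1 and 9.59% in WT Foxp3 library 2. Of the library 2 only regions, 15.5% had a peak in Foxp3 library 1 and 26.8% in library 2. The order was the same in IkE5 Foxp3 libraries, with 50.7% and 12.2% of the library 1 only regions and 16.2% and 27.6% of the library 2 only regions. The labels do not say what a library number stands for, and its part in the results was not tested. The map keeps only regions found by both libraries, and for counts over the whole map values from each library alone are given below where they differ by over 1.5 times. For single genes the peaks of 1 library often outnumbered the regions of both. Of 246 listed or named genes with a region, 118 had over 1.5 times as many peaks as regions in at least 1 library.

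**Figure D1:**
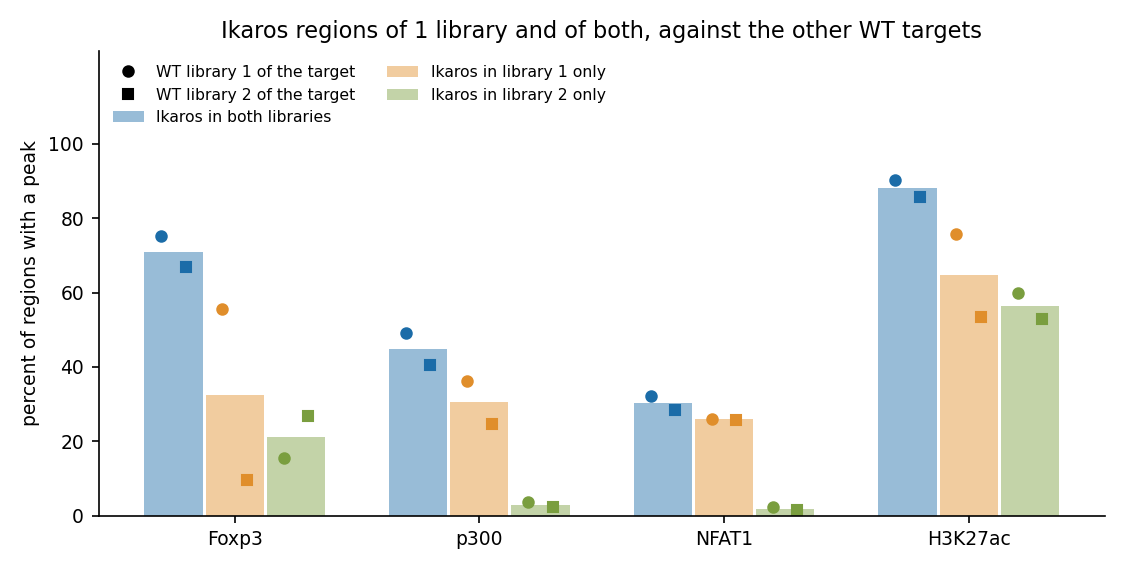
Share of Ikaros regions (vertical axis, percent) that had a peak of Foxp3, p300, NFAT1 or H3K27ac in WT cells, for 16672 regions of both Ikaros libraries, 5590 of library 1 only and 9954 of library 2 only. Bars are means over 2 WT libraries of the target, circles library 1 and squares library 2, and NFAT1 and p300 are nearly missing from the library 2 only regions.

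The chromatin of the cells carried the mark of their label at the genes checked. H3K27ac lay within 2 kb of 6 of 6 T cell markers and 6 of 6 Treg markers in both WT libraries, covering 85.8 and 71.6 kb and 224 and 152 kb in libraries 1 and 2. It was present at 4 of 6 B cell markers with 8.62 and 7.62 kb, at 2 of 6 myeloid markers with 4.26 and 2.14 kb and at 3 of 6 markers of CD8 T and natural killer (NK) cells with 3.98 and 3.95 kb. Ikaros regions lay within 2 kb of 5 T cell, 4 Treg, 0 B cell, 0 myeloid and 1 CD8 T or NK marker. The part of other cell types in the map was not tested.

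Ikaros regions were concentrated at gene starts. Of the 16218 regions on chromosomes with listed gene starts, 36.1% were centred within 1 kb of a start of a protein-coding gene, whereas 1.42% of chromosome positions taken every 1 kb were. A further 34.8% lay farther inside a gene (37.0% of positions), 9.74% lay outside but under 10 kb from a gene (9.02%), 11.6% at 10 to 50 kb (14.7%) and 7.72% beyond 50 kb (37.9%). Distances to starts on chromosome 18, with 454 regions, were not analysed here. Counted over the whole map from either end of a gene, 45.2% of regions lay within 2 kb of one. Starts were listed for 17492 of 21887 protein-coding genes, so the share at starts is a lower value than a full table would give. Exons, introns and untranslated regions are not told apart, because the gene table gives only the ends of each gene.

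Within promoters the regions sat on the start itself. Of the regions with starts, 27.7% were centred within 250 bp of a start. The 5862 promoter regions had a median position 36 bp before the start, and 59.9% of them were centred before it. In 688 of them (11.7%) starts of genes on both strands lay within 1 kb, as at paired divergent genes. Regions that only 1 library found were less often at starts, 13.2% for library 1 and 19.0% for library 2, and more often farther inside genes, 49.4% and 44.2%.

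**Figure D2:**
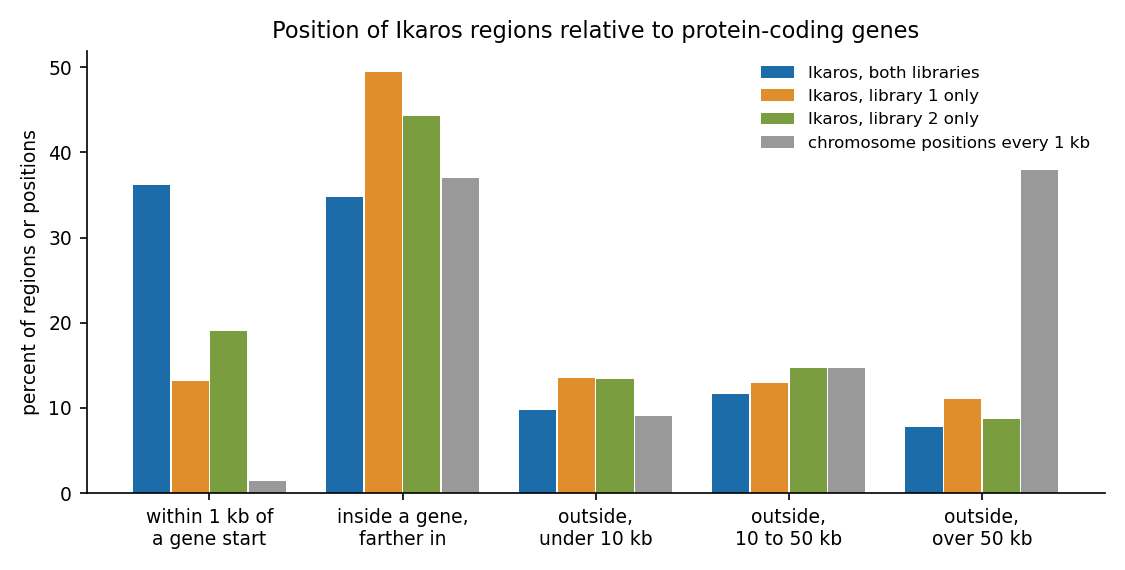
Position of Ikaros regions relative to protein-coding genes as a percent of regions (vertical axis) in 5 classes, for regions of both libraries, of library 1 only and of library 2 only, with chromosome positions every 1 kb for scale. Shared regions are at 36.1% within 1 kb of a gene start, against 13.2% and 19.0% for regions of a single library and 1.42% for positions.

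The position of single Ikaros libraries was close to that of Foxp3 and lay nearer to starts than that of NFAT1. The share of peaks within 1 kb of a start was 30.3% and 29.8% in the Ikaros libraries, 27.2% and 34.8% for WT Foxp3, 26.3% and 28.4% for WT p300 and 22.0% and 21.7% for WT NFAT1. The Ikaros values lay between the Foxp3 values and above all p300 and NFAT1 values. The differences of means were 2.70 points from p300 and 8.23 points from NFAT1, each with an exact 2-sided permutation p of 0.33, the smallest that 2 against 2 libraries allow, and 0.5 after Benjamini-Hochberg adjustment over 6 tests (3 targets, each also at 2 kb from either gene end). For Foxp3 the difference was -0.92 points with an exact p of 1. The labels do not say whether libraries of one group were made from different animals, and the p-values cover no more than the difference between preparations, possibly technical.

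Most genes with active chromatin had an Ikaros region. Of 21887 protein-coding genes, 11626 (53.1%) had at least 1 region inside or within 10 kb. Among 13241 genes with an H3K27ac region in both WT libraries the share was 85.5%, and among the 8646 genes without it was 3.59%. In all 6535 genes had 1 region, 3407 had 2, 1521 had 3 to 5, 139 had 6 to 9 and 24 (0.11%) had 10 or more. Counting each library alone, 93 genes had 10 or more peaks of library 1 and 107 had 10 or more of library 2. Of the regions, 53.0% lay in or near 1 gene, 27.7% in or near several genes and 19.3% near none. Longer genes had more regions, with a mean of 0.444 per gene in the shortest of 4 equal groups of genes and 1.29 in the longest.

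The gene with most Ikaros regions was Foxp1, a forkhead factor that keeps T cells in the resting state. It had 21 regions over a gene of 597 kb (chr6:98925342-99522746). In all, 34 peaks of library 1 and 31 of library 2 lay there, including peaks that only 1 library found. Rad51b, a recombination gene, and Wwox, an oxidoreductase gene at a fragile site, had 16 regions each, and Inpp4b, a phosphoinositide phosphatase that dampens PI3K signalling, had 15. Rora, a nuclear receptor of helper T cells, had 13. Bach2, a repressor that keeps T cells naive and supports Treg cells, had 12 regions (21 and 17 peaks), as many as Arhgef3, Ctif and Exoc2. Tox, a factor of exhausted and developing T cells, and Prkch, a protein kinase C, had 11, as had Ldlrad4, an inhibitor of transforming growth factor beta signalling, Atxn1, Clec16a and Hecw2. Akap13, Ankrd11, Asap1, Cmss1 and Ext1 had 10, as had Maml3, Ripor2, Sh3kbp1 and Thada. These last 4 fell outside the 20 listed genes by the tie rule. All of the 20 were long, from 159 to 913 kb with a median of 305 kb.

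**Figure D3:**
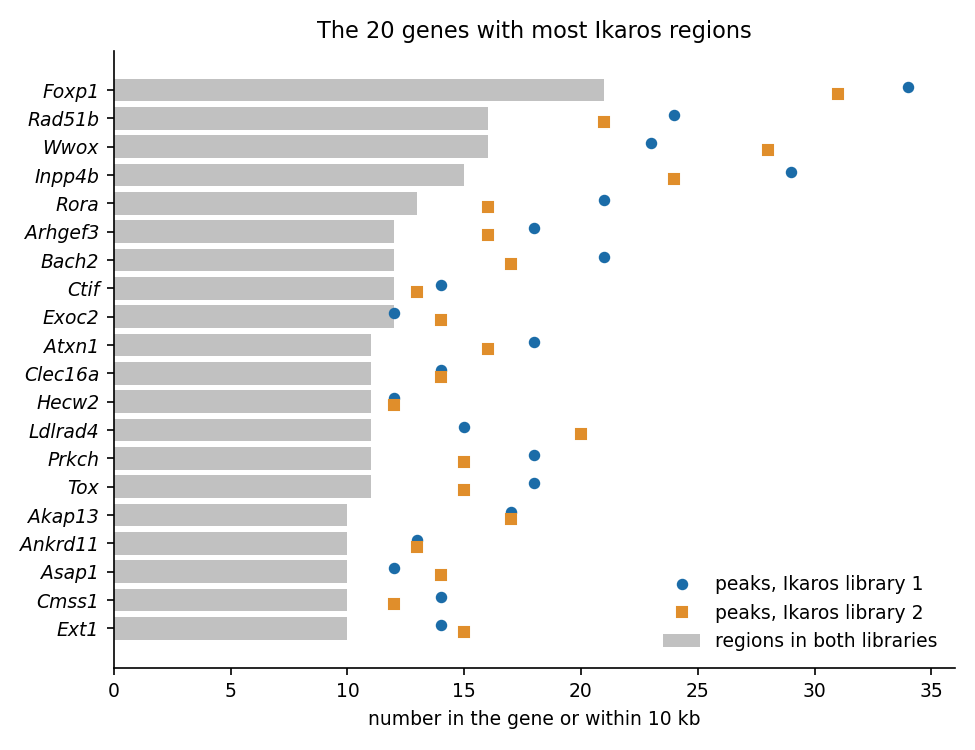
Number of Ikaros regions (bars) and of peaks in Ikaros library 1 (circles) and library 2 (squares) in or within 10 kb of the 20 genes with most regions. Foxp1 leads with 21 regions, and each gene had at least as many peaks in each library as regions in both.

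Set against gene length, another group of genes led. The median was 0.876 regions per 100 kb over all genes and 2.79 over genes with H3K27ac, with the 10 kb on each side counted in. The 20 genes with most regions had 1.71 to 5.87 regions per 100 kb. Among genes with at least 5 regions the highest densities were at Neurl4 (15.6), Igsf23 (13.8), Cmtm6 (13.1), which encodes a protein that stabilises the ligand PD-L1, Traf3ip3 (13.0) and Dad1 (13.0), a glycosylation gene beside the T cell receptor alpha locus. Abcb8, Ppp2r5d, Ifnar2, Sec22c and Upb1 followed at 12.8 to 10.96 regions per 100 kb. Ifnar2 encodes a chain of the type I interferon receptor. These 10 genes were 12.1 to 34.8 kb long, so the flanks and neighbouring genes make up much of the counted span.

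All 5 genes of the Ikaros family had regions of the map, and all 5 carried H3K27ac in both WT libraries. Of all genes with that mark 85.5% had a region. Ikzf3 (Aiolos) had 7, Ikzf1 itself had 5, Ikzf2 (Helios) and Ikzf4 (Eos) had 4 each and Ikzf5 had 1. At Ikzf1, 4 regions lay inside the gene and 1 lay 6.93 kb before its first start (chr11:11678737-11679256), and neither of its listed start windows had an Ikaros peak. At all 5 Ikzf1 regions both WT Foxp3 libraries had a peak. The Helios gene differed most between libraries, with 12 peaks in library 1 and 5 in library 2. The single Ikzf5 region was centred 0.021 kb before its start.

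Of 30 Treg signature genes 26 had a region, beside 85.5% of genes with H3K27ac, which all 30 carried. Their medians were 2 regions and 4.12 regions per 100 kb, beside 1 and 2.79 over genes with H3K27ac. Beside Ikzf3 with 7, most regions were found at Entpd1 (CD39), Nrp1 and Tnfrsf1b (TNFR2), with 5 each. Foxp3 had 1 region, inside the gene and 4.45 kb after its first start (chrX:7583867-7584377). The conserved enhancer CNS2, known for keeping Foxp3 switched on, lies in this part of the gene, and its overlap with the region was not tested. Foxp3, p300, NFAT1 and H3K27ac had a peak there in both libraries of both genotypes. Il2ra, the interleukin 2 receptor alpha chain, had 3 regions (6 and 5 peaks in libraries 1 and 2), at 7.54 and 6.52 kb before its start and 10.7 kb after it. Il10, an inhibitory cytokine, and Tnfrsf18 (GITR) had 1 region each, 8.87 and 3.84 kb outside the gene. Ctla4, an inhibitory receptor of Treg cells, had none, with 2 peaks in library 1 and 0 in library 2.

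Of 20 effector cytokine genes 9 had a region (45%), beside 53.1% of all protein-coding genes, and 10 had H3K27ac in both WT libraries. Regions overlapped the gene at 3 of the 9 and lay only outside it at 6. The Il2 promoter was among them, with a region centred 0.199 kb before the start (chr3:37125849-37126457). At that region p300 had a peak in all 4 libraries, Foxp3 in 2 WT and 1 IkE5 library, NFAT1 in 1 WT and 2 IkE5 libraries and H3K27ac in 0 WT and 1 IkE5 library. It therefore belongs to the 1339 regions (8.03%) with no H3K27ac peak in either WT library. Ifng, the gene of interferon gamma, had 0 regions with 1 peak in library 1 and 0 in library 2, and Il17a, Il17f, Il21, Il3, Il5, Csf2, Ccl3 and Ccl4 had no peak in either library. Tbx21, the factor of type 1 helper cells, had 0 regions with 1 and 2 peaks, and its promoter window overlapped a peak of 1 library only. Gata3, that of type 2 helper cells, had 2 regions and Rora had 13. These genes differ in length, with 17.3 kb for Tbx21, 30.9 kb for Gata3 and 735 kb for Rora. Per 100 kb Gata3 had 3.93 regions and Rora 1.72, beside a median of 2.79 over genes with H3K27ac.

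Genes of T cell receptor signalling were in the map at 28 of 28, and all 28 had H3K27ac, a set of genes of which 85.5% had a region. Their median was 3 regions, beside 1 over genes with H3K27ac, in genes with a median length of 44.9 kb. Per 100 kb the median was 4.59 regions, close to 4.63 in the Ikaros family, 4.12 in the Treg signature and 4.09 in housekeeping genes. Prkcq, the protein kinase C of the immune synapse, had 8 regions (13 and 10 peaks), and Cblb, a ubiquitin ligase, and Ubash3b, a phosphatase, both brakes on the receptor, had 6 (12 and 10 peaks, and 13 and 9). Fyn, a kinase, and Ptpn22, a phosphatase, had 5 each (12 and 6 peaks, and 11 and 6). At Zap70, the kinase that docks on the activated receptor, the single region was centred 0.05 kb before the start (chr1:36761494-36762002), and all 4 other targets had a peak there in both libraries of both genotypes. At Lat, an adaptor, 1 of 3 regions was centred 0.088 kb before the start. Cd3e had 2 regions, 1 of them 0.127 kb after its start, and Cd4 had 2.

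Other lists lay near the share of genes with H3K27ac (85.5%) or under it. Naive and quiescence genes had regions at 17 of 20 and helper programme genes at 18 of 22, each with a median of 2. Corepressor genes, among them subunits of NuRD, SIN3, NCoR and Polycomb complexes, had regions at 25 of 28 with a median of 1, most at Gatad2a with 5. Activation-induced factors had regions at 22 of 30, where Tox had 11, Nfatc2 (NFAT1) 6 and Nr4a1 4, while Myc, Jun and Egr3 had 0. For partners of Foxp3 the count was 13 of 18, led by Runx1 with 9. Co-inhibitory receptors had 9 of 12, with 3 regions at Havcr2 (TIM-3) and 1 at Pdcd1. Housekeeping genes had regions at 14 of 16 and cell cycle genes at 16 of 18, so presence of a region did not set immune lists apart.

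Notch pathway genes had regions at 10 of 16, against 12 with H3K27ac. Maml3 with 10 and Maml2 with 9, coactivators of Notch, had most, and Rbpj, the DNA-binding partner of Notch, had 3. Per 100 kb Maml3, Maml2 and Rbpj had 2.28, 2.08 and 2.47 regions, under the median of 2.79 over genes with H3K27ac. Notch1 had 2 regions and Dtx1, a Notch target, had 1 (1 and 3 peaks), while the target gene Hes1 had 0 with 1 peak in library 1. Among genes of other cell types, 7 of 16 B cell genes (43.8%) and 5 of 14 myeloid genes (35.7%) had a region. So did 4 of 14 CD8 T and NK genes (28.6%) and 4 of 20 liver and neuron genes (20%). Each of these lists had a median of 0, and over all protein-coding genes the share with a region was 53.1%. H3K27ac in both WT libraries was found at 10, 7, 8 and 7 of their members. Of those members 7, 5, 3 and 4 had a region, beside 85.5% of all genes with H3K27ac. The B cell members were Blk, Cd79a, Cr2, Dntt, Fcer2a, Igll1 and Vpreb1 with 1 region each. Only at Blk and Dntt did the region overlap the gene. Igll1 and Vpreb1 encode the surrogate light chain of the pre-B receptor, known Ikaros targets in B cell precursors. Their region here lay outside the gene, within 10 kb, and whether it belongs to these genes was not tested.

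Most regions stood alone, and a part was clustered. When neighbouring regions were joined over gaps up to the distance given with the methods, 10232 regions stood alone, 2020 pairs formed and 695 clusters held 3 or more regions. Those clusters held 2400 regions (14.4%), had a median span of 18.1 kb, and 64 of them held 5 or more. The share of regions at promoters was 24.3% in the clusters and 40.6% among single regions. Of the clusters of 3 or more regions, 307 overlapped a single gene each, 234 overlapped several genes and 154 overlapped none. The number of clusters depended on the joining distance, 27 at 5 kb and 1585 at 25 kb, and on the libraries, 1638 in library 1 alone and 1961 in library 2 alone.

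The biggest cluster held 9 regions over 70.5 kb at Os9, B4galnt1 and Slc26a10 (chr10:127107470-127177984). None of the 9 regions was centred within 1 kb of a listed gene start, and not every gene has a listed start. Os9 encodes a lectin of protein quality control. Clusters of 8 regions lay at Hecw2 and Stk17b, a kinase gene of lymphocytes (chr1:53773880-53825202), at a stretch of 9 genes that includes Coro1b and Ptprcap, the CD45-associated protein (chr19:4113705-4169864), nearest to Tomm20 without overlapping a gene (chr8:126832514-126895631), and at Rassf1 (chr9:107521369-107587850). In the Rassf1 cluster 6 of 8 regions were at promoters, spread over 12 genes. A cluster of 7 regions lay in a histone gene array around H3c7 (chr13:23517660-23571522), with 5 regions at promoters, and another at Igtp and Irgm2, interferon-induced GTPase genes, held 6. The last 2 were chosen after their values were seen.

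Promoter windows under a region held the ETS core more often than other windows, and the Ikaros core TGGGAA about as often. TGGGAA occurred on either strand in 23.3% of the 6480 promoter windows that overlap a region, in 19.97% of 2268 windows with H3K27ac and no Ikaros peak, in 26.9% of 10714 windows with neither and in 24.5% of all 21263 windows. The shorter core GGGAA, which TGGGAA contains, occurred in 66.2%, 61.4%, 61.5% and 63.0% of the same sets. By contrast CGGAAG occurred in 43.2%, 19.2%, 7.21% and 21.1%. As a comparison of like length, TGGGAA in reverse letter order, AAGGGT, occurred in 10.2%, 13.2%, 13.5% and 12.3%. CGGAAG and AAGGGT were added after the data were seen. CGGAAG holds the GGAA that GGGAA also ends in, but C stands before it in one motif and G in the other, so a single GGAA cannot be counted for both. Of genes with a window, 5747 (32.9%) had one that overlaps a region.

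Base composition moved with these sets. Median GC content was 60.7% in windows under a region, 62.7% with H3K27ac and no Ikaros peak and 50.3% with neither. H3K27ac here means a region of both WT libraries, and windows with Foxp3, p300 or NFAT1 were kept. The median number of CpG per window was 22, 20 and 4. CGGAAG itself holds a CpG, and windows were not matched for CpG, whose part in these shares was not tested. Windows with a GC content of 55 to 65% were also taken by themselves. There CGGAAG occurred in 46.2% under a region, 21.5% with H3K27ac and no Ikaros peak and 10.9% with neither. TGGGAA occurred in 24.3%, 23.4% and 28.2% of the same sets. Windows with both an Ikaros and a Foxp3 region held CGGAAG in 47.9% of 4291, those with Ikaros and no Foxp3 region in 34.1% of 2189, and those with Foxp3 and no Ikaros region in 31.0% of 410. CGGAAG was densest near region centres, with 3.35 per 1000 bases within 50 bp, 2.82 at 50 to 100 bp, 2.20 at 100 to 150 bp and 1.19 at 200 to 250 bp. TGGGAA stood at 1.04 within 50 bp and 0.864 at 200 to 250 bp. For the shorter core GGGAA the densities were 4.32 and 3.59, and for AAGGGT 0.335 and 0.393. Regions are centred near gene starts, so distance from the centre and distance from the start cannot be told apart here. These shares describe the windows and show no bound site, and regions away from starts were not searched.

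**Figure D4:**
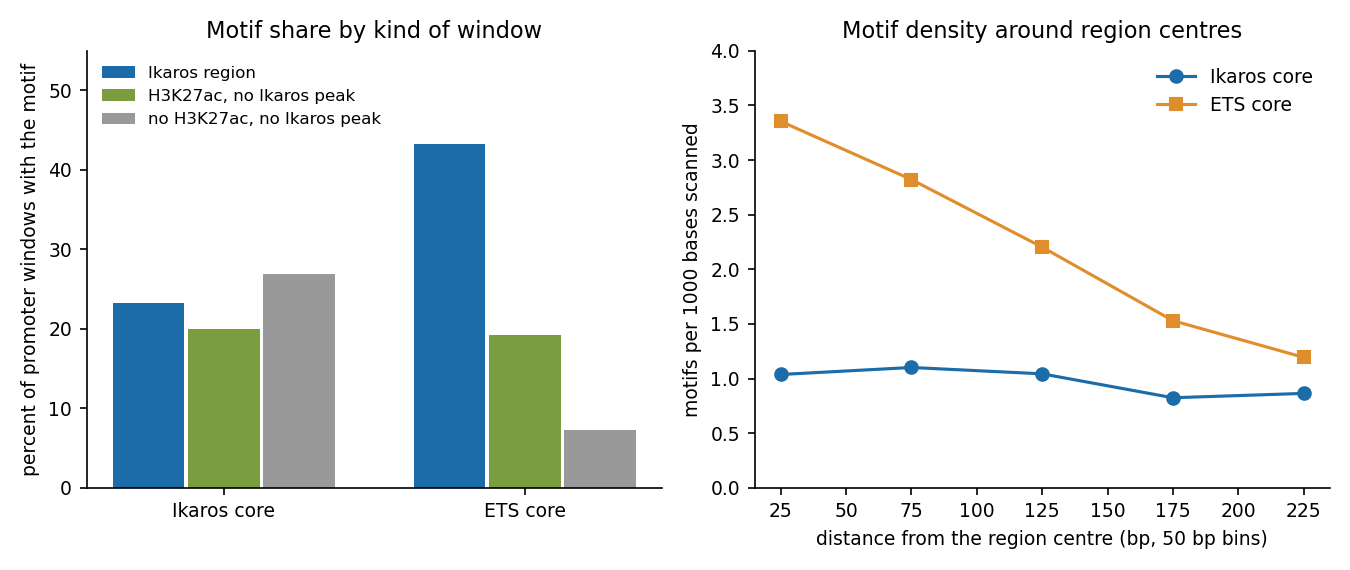
Left, percent of promoter windows with the Ikaros core TGGGAA or the ETS core CGGAAG. Windows were under an Ikaros region, had H3K27ac and no Ikaros peak, or had neither. Right, motifs per 1000 bases by distance from the centre of the nearest region, in windows under a region. The ETS core is at 43.2% under a region and falls from 3.35 to 1.19 per 1000 bases away from the centre, while the Ikaros core is at 23.3% and goes from 1.04 to 0.864.

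Most Ikaros regions carried other factors in WT cells. H3K27ac, Foxp3, p300 and NFAT1 peaks of both WT libraries were found at 84.1%, 56.7%, 33.3% and 23.2% of the regions. None of the 4 was found as a region of both WT libraries at 10.1% of Ikaros regions, and all 4 were found at 14.4%. Conversely, WT NFAT1 regions had a peak of Ikaros library 1 at 93.5% and of library 2 at 74.5%, and WT p300 regions at 96.9% and 81.6%. The 1339 Ikaros regions without H3K27ac in either WT library were seldom at promoters, 5.15% against 41.5% of those with H3K27ac in both. Foxp3 lay at 20.7% of them, p300 at 8.81% and NFAT1 at 5.75%, against 62.4%, 36.2% and 25.5%. In IkE5 cells 162 of the 1339 (12.1%) had H3K27ac in both libraries.

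NFAT1 was found at fewer Ikaros regions in IkE5 cells than in WT cells. A peak was present at 32.1% and 28.4% of regions in WT libraries 1 and 2 and at 16.5% and 11.3% in IkE5 libraries 1 and 2. The groups did not overlap, and the means differed by -16.3 points, from 30.2% ± 2.62 to 13.9% ± 3.70 (SD, n = 2 each). This is larger than the spread between libraries, with an exact 2-sided permutation p of 0.33, the smallest possible here, and 0.889 after adjustment over 8 tests. A lower share of cells with NFAT1 bound and weaker binding in each cell cannot be told apart, and read depth and the calling threshold, which the lists do not give, were not tested as a part of the difference. With any 1 NFAT1 or Ikaros library left out the difference lay between -18.9 and -10.6 points.

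The ratio was lower at promoters. NFAT1 lay at 23.8% and 20.1% of promoter regions in WT and at 8.05% and 4.95% in IkE5, a ratio of means of 0.296, while other regions went from 36.8% and 33.0% to 21.2% and 14.8%, a ratio of 0.516. The share at promoters divided by the share elsewhere was 0.646 and 0.608 in WT and 0.380 and 0.334 in IkE5, without overlap (exact 2-sided permutation p of 0.33). In clusters of 3 or more regions the ratio was 0.488 and at single regions 0.446.

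**Figure D5:**
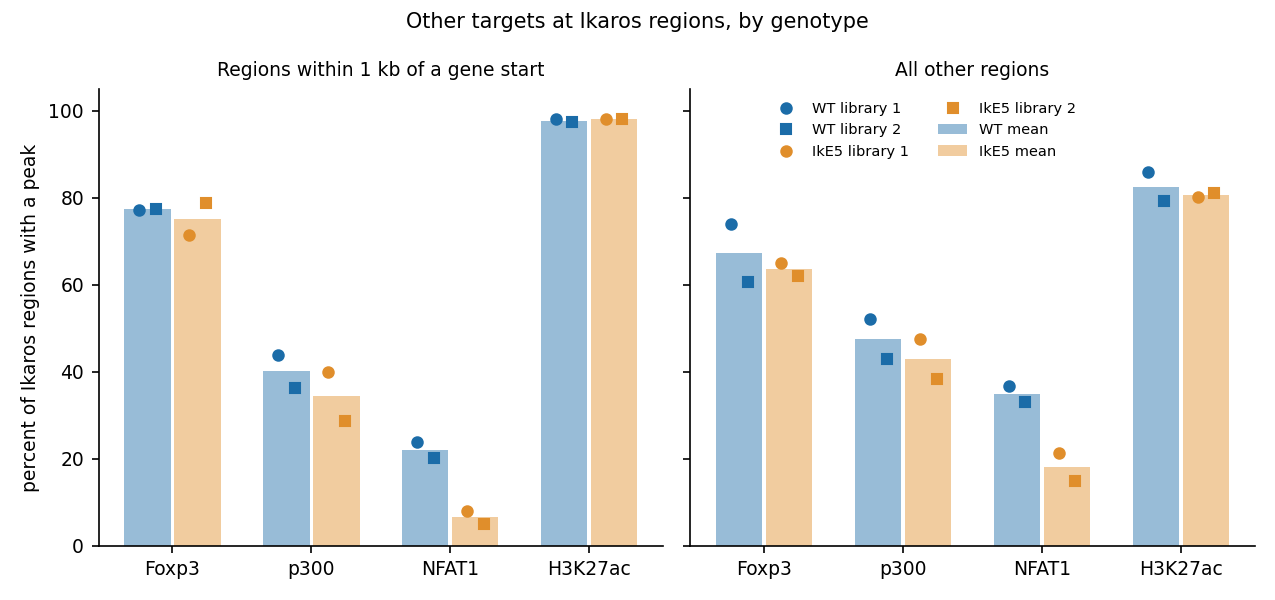
Percent of Ikaros regions with a peak of each target (vertical axis) at promoters (left) and elsewhere (right), with bars for the mean and symbols for the 2 libraries of WT and IkE5 cells. NFAT1 is lower in both IkE5 libraries in both panels, and the values of the genotypes overlap for the other targets.

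NFAT1 lists were shorter in IkE5 cells, and the ratio to WT was lower at Ikaros regions than elsewhere. Peaks at Ikaros regions numbered 5356 and 4734 in WT and 2753 and 1885 in IkE5, 46.0% of the WT mean, whereas peaks elsewhere numbered 2469 and 2116 in WT and 2155 and 1550 in IkE5, 80.8%. A lower ratio at Ikaros regions than elsewhere was not particular to NFAT1. It was 95.4% against 121% for Foxp3 and 88.9% against 139% for p300, but 98.3% against 95.5% for H3K27ac. The map was drawn from WT libraries only, and the part of this in the ratios was not tested. The share of NFAT1 peaks at Ikaros regions was 68.4% and 69.1% in WT and 56.1% and 54.9% in IkE5 (exact 2-sided permutation p of 0.33, adjusted 0.889). For p300 the shares were 71.7% and 77.0% in WT and 64.2% and 64.8% in IkE5, also without overlap, with the same p-values. The view from WT NFAT1 sites was different. Of 3876 sites with an Ikaros region 54.2% and 38.8% still had a peak in IkE5 libraries 1 and 2, and of 265 sites with no Ikaros peak 39.6% and 27.5% did. Of 1160 sites with an Ikaros peak in 1 library only, 64.8% and 47.7% did. This order was not the same at promoters, where 40.0% and 27.1% of 864 sites with an Ikaros region and 40.6% and 34.4% of 32 sites without an Ikaros peak still had a peak. Away from promoters the shares were 58.3% and 42.2% of 2903 sites and 39.6% and 26.0% of 227. Differences between these sets were not tested.

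Lower NFAT1 counts in IkE5 cells were spread over the genes named above. At the 20 genes with most regions, 99 of 245 Ikaros regions had NFAT1 in both WT libraries and 45 had it in both IkE5 libraries, with fewer in IkE5 at 18 genes, more at 1 and as many at 1. Foxp1 had 12 such regions in WT and 6 in IkE5, Inpp4b 10 and 4, Bach2 7 and 4 and Rora 3 and 0. Over the whole map the numbers were 3871 (23.2%) and 1595 (9.57%). The Ikaros family went from 11 to 4 of 21 regions, the T cell receptor signalling genes from 50 to 26 of 90, the helper programme genes from 20 to 4 of 55 and the Treg signature from 38 to 19 of 73. These list totals add up the counts of single genes, so a region near several listed genes is counted for each of them. The 2 NFAT1 regions of Ikzf4 had no NFAT1 peak in either IkE5 library. At the region 6.93 kb before Ikzf1, NFAT1 and p300 had a peak in both WT libraries and in neither IkE5 library, with Foxp3 and H3K27ac present in all. The Lck region 0.249 kb before an inner start (chr4:129558351-129558890) showed the same pattern for NFAT1, p300, Foxp3 and H3K27ac, and was chosen after its values were seen. Lck is the kinase that starts receptor signalling.

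For the other targets the genotypes overlapped at Ikaros regions. Foxp3 had a peak at 75.1% and 66.7% of regions in WT and at 67.4% and 68.1% in IkE5, a difference of -3.16 points (exact p of 1, adjusted 1). For p300 the shares were 49.2% and 40.5% in WT and 44.8% and 34.8% in IkE5, a difference of -4.97 points (exact permutation p of 0.667, adjusted 1), and for H3K27ac 90.4% and 85.7% in WT and 86.6% and 87.2% in IkE5, a difference of -1.12 points (exact p of 1, adjusted 1). Leaving out 1 library turned each direction, to 1.03 points for Foxp3 without WT library 1, 0.027 points for p300 without IkE5 library 2 and 1.22 points for H3K27ac without WT library 1. H3K27ac at WT sites with an Ikaros region was found again in 95.4% and 96.4% of 13641 sites in IkE5 libraries, against 63.8% and 60.4% of 8247 sites without an Ikaros peak. Of 5615 sites with an Ikaros peak in 1 library only, 84.2% and 85.1% were found again. At promoters the shares were 99.3% and 99.2% of 5405 sites with an Ikaros region against 84.9% and 84.2% of 556 without an Ikaros peak. Away from promoters they were 92.8% and 94.5% of 7866 sites against 62.1% and 58.6% of 7473. H3K27ac peaks varied in width, up to 80690 bp in WT library 1. The sets were not matched for width, and differences between them were not tested.

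Ikaros regions lay near a minority of microRNA genes. Of 1005 hairpins in the RefSeq table, 98 (9.75%) had a region within 2 kb and 27 overlapped one, and 112 and 148 had a peak of library 1 and of library 2 within that distance. Within 2 kb of protein-coding genes, which are far longer than hairpins, the share with a region was 45.7%. Examples are shown as mature sequences with the seed, bases 2 to 8, in capitals, and were chosen after their values were seen.
mmu-miR-155-5p: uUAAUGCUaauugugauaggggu
mmu-miR-132-3p: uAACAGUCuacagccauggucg
mmu-miR-212-3p: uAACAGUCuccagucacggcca
Mir155, a microRNA gene of activated lymphocytes that supports Treg cells, lies at chr16:84714140-84714204, 580 bp after a region at chr16:84712986-84713559. Foxp3, p300, NFAT1 and H3K27ac had a peak at that region in both WT libraries, and NFAT1 also in both IkE5 libraries. Mir132 and Mir212, whose 3p products share the seed AACAGUC, overlap a single region at chr11:75173445-75173989, with Foxp3 and H3K27ac in both WT libraries, p300 in 1 and NFAT1 in none.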

How the data were processed

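Peak lists of 18 libraries were used, out of 22 samples described. The other 4 are inputs and were not analysed here. The authors deposited, for each library separately, chromosome, start and end of every peak, with no score. Per the submitters' processing notes, FastQC, Bowtie2, MACS2, bedtools and HOMER were used with mm10. The peak caller, its threshold and its control are not given in the sources used here. All or nearly all peaks of Ikaros, Foxp3, p300 and NFAT1 were 500 bp wide (1 exception in 4 lists). Read depth is unknown, and the number of peaks moves with depth and threshold as well as with binding.

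Regions, overlaps of at least 1 bp, counts per gene (21887 protein-coding RefSeq genes of GRCm38.p6, with 10 kb on each side), clusters (gaps under 12.5 kb) and motif matches were computed with Python 3.11.15, numpy 2.4.6 and pandas 2.3.3, in code tested on simulated peaks. Gene starts came from 21263 RefSeq promoter windows of 17492 genes. Libraries were compared with exact 2-sided permutation tests and Benjamini-Hochberg adjustment, and 2 against 2 libraries cannot give a p under 0.333. Named genes are the 20 with most regions, the 10 densest with at least 5 regions, those nearest the 5 biggest clusters, the Ikaros family, 20 key genes and, in each of 17 lists, members with most or fewest regions. The members, lists and named genes were chosen with earlier results of these data known. Alternatives were other distances and overlaps, each library left out, and a block for the library number.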

Additional observations from a re-analysis of the deposited data

How the results depend on the processing

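Requiring 250 bp of overlap left 15720 regions. Each Ikaros library alone gave 22297 and 26641 regions. The share within 2 kb of a gene end (45.2%) was 41.4% at 1 kb, 51.8% at 5 kb, and from 39.0% to 39.8% in single libraries. The number of genes with a region (11626) ran from 9035 without flanks to 14980 with 50 kb. Genes with 10 or more regions (24) numbered from 93 to 107 in single libraries, 23 without flanks and 22 with 250 bp of overlap. Clusters (695) numbered 27 at 5 kb, 1585 at 25 kb and from 1638 to 1961 in single libraries. The share of promoter windows under a region with TGGGAA (23.3%) was 22.7% to 23.7% in single libraries. It was 66.2% for GGGAA, 96.7% for GGAA and, for the motifs added after seeing the data, 10.2% for AAGGGT and 43.2% for CGGAAG.

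For the difference between genotypes at Ikaros regions, leaving out 1 library gave -18.9 to -10.6 points for NFAT1, -9.97 to 0.027 for p300, -7.36 to 1.03 for Foxp3 and -3.45 to 1.22 for H3K27ac, and the cause of the turned directions was not tested. With the library number as a block the differences were -16.3, -4.97, -3.16 and -1.12 points, with exact sign-flip p-values of 0.5, 0.5, 1 and 1, where 0.5 is the smallest possible. Deviations of same-numbered libraries over the 16672 regions correlated at 0.255 for Foxp3, 0.143 for H3K27ac, 0.053 for NFAT1 and -0.017 for p300, and with 2 numbers and no label to pair them the pairing is not established. Depth cannot be read from the lists, so a missing peak is not evidence of missing binding.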

Other observations

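Ikaros regions were unevenly spread over chromosomes in proportion to genes. They numbered 99.6 per 100 protein-coding genes on chromosome 10 and 98.1 on chromosome 12, but 52.9 on chromosome 7 and 39.6 on chromosome X. Chromosome Y, with 256 protein-coding genes, had 0 regions, with 4 peaks of library 1 and 1 of library 2. Of WT Foxp3 sites with an Ikaros region 5.46% had no Foxp3 peak in either IkE5 library, against 29.2% of the 329 sites with no Ikaros peak. For p300 the shares were 14.2% and 47.6% (143 sites without Ikaros). Where only 1 Ikaros library had a peak, the shares were 20.5% of 1161 Foxp3 sites and 16.0% of 1183 p300 sites. These sites were chosen by WT peaks, and the differences between the sets were not tested.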
